A study of Rattus norvegicus with 6 samples.

Results

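The named loci on distal chromosome 3 are the rows of the authors' gene table that carry a gene symbol, were tested by the authors, and start between positions 122803312 and 177163090 of rat chromosome 3 on the rn6 build. This stretch of 54.4 Mb holds 586 such rows under 318 symbols, out of 19516 named tested rows and 26751 rows in all. It was picked because its values in miR-203 knockout (KO) cells lay above those in wild-type (WT) cells, so the shared rise chose the loci and is given here as a description, with no test. What is described is how far single genes went beyond that rise, which genes did not share it, and what the loci have in common otherwise.

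The cells are RUCA-I, an epithelial line of a rat tumour of the uterine lining (endometrial adenocarcinoma) from the Lewis strain. Untreated cells were grown to near confluence, total RNA was isolated, and stranded libraries were made by the dUTP method. The WT group is 3 batches of the line and the KO group is 3 independently made lines that lack miR-203. The authors gave 1 FPKM value (sequenced fragments relative to transcript length and to library size) per row and group. It is taken here as pooled over the 3 samples, so no spread between replicates can be computed and the depth of each sample is unknown. A difference present in 1 KO line and one present in all 3 cannot be told apart, nor can fewer cells of a kind and less RNA per cell. Of 6 epithelial markers 5 had a row, and they summed to 1173 FPKM in WT cells and 1153 FPKM in KO cells. Within this sum Epcam (501 and 419 FPKM) and Cdh1 (152 and 144) were lower in KO cells. Krt8 (204 and 241), Krt18 (103 and 121) and Cldn4 (213 and 228) were higher. Of 10 stromal, endothelial and leukocyte markers 1 had a row, Col1a1, at 1.43 and 1.17 FPKM.

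miR-203 is a microRNA known from stratified epithelium, where it restrains the self-renewing state of basal cells. A microRNA pairs through its seed, bases 2 to 8, with sites in target transcripts and lowers their level or translation, whichever chromosome they come from. Genes that lie side by side on a mammalian chromosome mostly do unrelated jobs, so a stretch of this size holds a cross-section of cell functions: here replication and mitosis (Pcna, Aurka, Tpx2), transcription (Id1, Cebpb, Mybl2), signalling (Src, Bmp7, Gnas), matrix and proteases (Tgm2, Lama5, Ctsa) and RNA processing (Srsf6, Nop56). The knocked-out microRNA itself lies on chromosome 6, not on chromosome 3 (GRCr8 chr6:137020756-137020777, plus strand, from RefSeq). Its main mature strand is shown because its absence defines the KO group, with the seed in capitals.
rno-miR-203a-3p: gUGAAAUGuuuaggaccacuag

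RefSeq promoters of the GRCr8 build, each 300 bases around a gene's start, were matched by symbol for 225 of the 318 symbols. Those shown belong to 3 of the genes called higher in KO cells (Slc13a3, Id1 and Cebpb) and to 2 genes without the regional rise (Ctsa and Ptpn1). Tgm2 and Dnmt3b had no entry. Capitals mark GC boxes, searched as GGGCGG on both strands. The positions on GRCr8 differ from the rn6 positions used for the loci.
Slc13a3 (GRCr8 chr3:174623844-174624143, minus strand): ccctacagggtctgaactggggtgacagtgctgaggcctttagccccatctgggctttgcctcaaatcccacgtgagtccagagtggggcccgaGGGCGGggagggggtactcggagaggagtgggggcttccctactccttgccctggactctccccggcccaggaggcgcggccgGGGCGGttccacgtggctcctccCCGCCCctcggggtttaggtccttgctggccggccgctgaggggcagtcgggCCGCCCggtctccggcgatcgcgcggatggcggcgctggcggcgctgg
Id1 (GRCr8 chr3:161671314-161671613, plus strand): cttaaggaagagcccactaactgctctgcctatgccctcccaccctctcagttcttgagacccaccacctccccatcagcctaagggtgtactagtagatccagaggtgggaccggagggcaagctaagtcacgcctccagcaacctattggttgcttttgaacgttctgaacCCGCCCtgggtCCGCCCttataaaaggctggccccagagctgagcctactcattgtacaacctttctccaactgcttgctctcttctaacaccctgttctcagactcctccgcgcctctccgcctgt
Cebpb (GRCr8 chr3:176816755-176817054, plus strand): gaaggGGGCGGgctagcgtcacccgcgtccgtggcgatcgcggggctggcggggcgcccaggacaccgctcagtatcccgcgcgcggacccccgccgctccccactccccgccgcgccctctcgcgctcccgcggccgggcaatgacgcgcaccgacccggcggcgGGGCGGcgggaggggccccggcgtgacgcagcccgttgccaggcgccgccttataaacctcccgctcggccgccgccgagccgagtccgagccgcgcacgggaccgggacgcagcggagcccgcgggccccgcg
Ctsa (GRCr8 chr3:173988193-173988492, plus strand): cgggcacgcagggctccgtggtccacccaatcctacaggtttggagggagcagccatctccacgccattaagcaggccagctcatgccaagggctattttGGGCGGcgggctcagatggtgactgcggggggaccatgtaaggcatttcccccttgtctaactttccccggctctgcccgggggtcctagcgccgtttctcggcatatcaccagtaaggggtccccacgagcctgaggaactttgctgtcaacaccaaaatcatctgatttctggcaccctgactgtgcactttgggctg
Ptpn1 (GRCr8 chr3:177057483-177057782, plus strand): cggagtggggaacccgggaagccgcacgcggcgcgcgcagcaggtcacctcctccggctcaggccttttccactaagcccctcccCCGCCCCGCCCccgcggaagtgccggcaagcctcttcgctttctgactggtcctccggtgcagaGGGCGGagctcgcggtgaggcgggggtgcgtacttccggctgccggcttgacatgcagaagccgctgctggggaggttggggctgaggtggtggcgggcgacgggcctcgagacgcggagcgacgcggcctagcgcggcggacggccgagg
GC boxes stood in all 5 of these windows, those of the called genes and those of the genes without the regional rise. There were 4 for Slc13a3, 2 each for Id1 and Cebpb, 1 for Ctsa and 3 for Ptpn1. CpG content differed widely, with 56 CpG pairs for Cebpb, 38 for Ptpn1, 26 for Slc13a3, 13 for Ctsa and 8 for Id1. Id1 and Cebpb also held a TATAAA box.

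Over all loci averaging 5 FPKM or more and a matched promoter, motif content was close to that of other genes. Of 179 such symbols, 64.2% held a GC box, against 67.0% of 5719 promoters of genes expressed elsewhere in the genome at the same minimum and 33.1% of all 33469 promoters in the table. The CCAAT box, searched as CCAAT on both strands, stood in 38.0% of the loci, 38.7% of the promoters elsewhere and 37.5% of all. TATAAA stood in 6.15%, 5.40% and 14.2% of them, and the E-box CACGTG in 7.82%, 10.1% and 6.42%. Within the loci, the 42 symbols of the table's first and second passes with a log2 ratio of 0.26 or more held a GC box in 66.7%, a CCAAT box in 31.0% and TATAAA in 11.9%. The 38 such symbols with a log2 ratio of 0.09 or less held them in 73.7%, 44.7% and 5.26%. These shares are counts of letters in a window and were not tested.

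The shape of the rise was that of a small, shared displacement. In all, 585 of the 586 loci were above 0 in both groups, and 301 of them (247 symbols) averaged 5 FPKM or more over the groups, the minimum used unless stated otherwise. The median of their KO over WT log2 ratios was 0.17, a fold of 1.12, and 263 of 301 (87.4%) were higher in KO cells. Named rows elsewhere (9529) had a median of -0.01, with 47.4% higher. The quartiles were 0.08 and 0.27 for the loci and -0.10 and 0.09 elsewhere, so the interquartile ranges were alike, 0.188 and 0.197, and the whole distribution sat higher. Rows of the rest of chromosome 3 (467) had a median of -0.01, with 48.0% higher, and medians of the 21 chromosomes compared, these loci left out, ran from -0.04 to 0.04.

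The table lists each of the 21 chromosomes in 3 passes. RefSeq gives a strand for the symbols of some loci, counted here as rows, so that a symbol can count more than once. In the first pass 119 such rows had a symbol on the plus and 2 on the minus strand. The second pass had 3 and 97, and the third 132 and 79. At the minimum of 5 FPKM the third pass held 55 of the loci, of which 53 share their symbol with a row of the first or second.

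**Figure D1:**
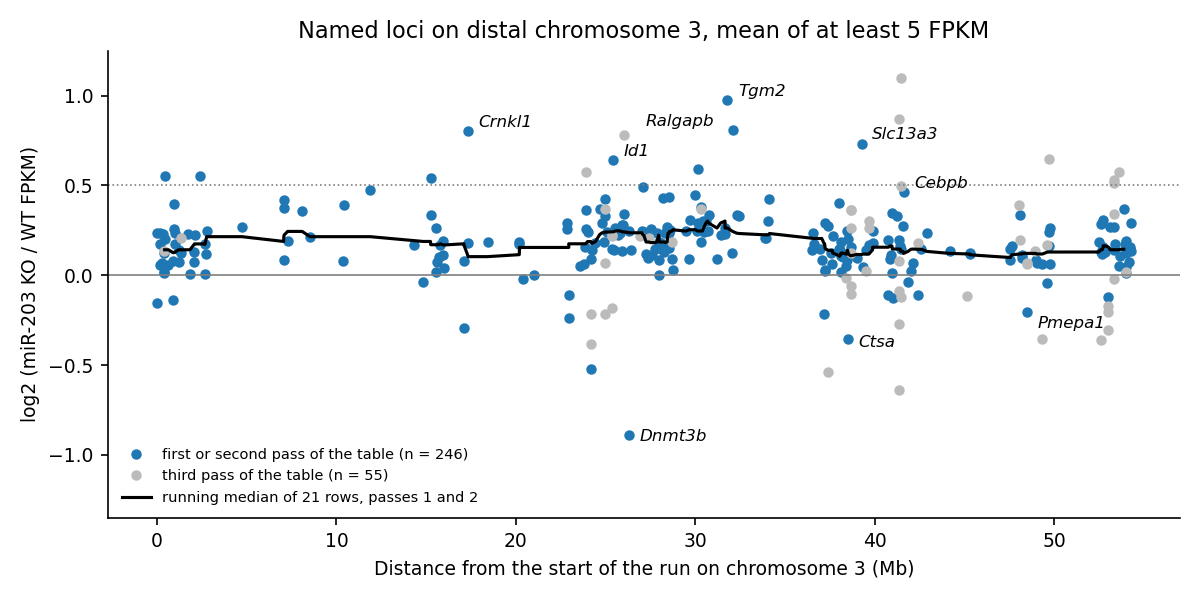
Log2 ratio of KO over WT FPKM of each named locus with a mean of at least 5 FPKM, by distance in Mb from the start of the run. Blue points are loci of the first and second pass of the authors' table, grey points those of the third pass, the black line is a running median of 21 loci, and the dotted line marks 0.5. The running median stays above 0 throughout, with Tgm2 and Ralgapb highest and Dnmt3b lowest among the blue points.

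In successive windows of 10 Mb the median log2 ratio was 0.17 (41 loci), 0.17 (20), 0.21 (79), 0.20 (71), 0.12 (55) and 0.14 (35), with the last window cut short by the end of the run. The 10 Mb just before the run had a median of 0.02 over 69 named rows. The share higher ran from 95.1% of loci in the first window to 78.2% in the fifth, which holds Cebpb, Ptpn1, Nfatc2 and Pmepa1. Of 174 windows on other chromosomes with at least 20 named rows, medians ran from -0.17 to 0.15, 1 was at or above the lowest window of these loci and 0 were above the highest. By share higher, 3 of these windows, all on chromosome 6, stood above the fifth window of the loci, with 86.7%, 85.3% and 80.4%.

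**Figure D2:**
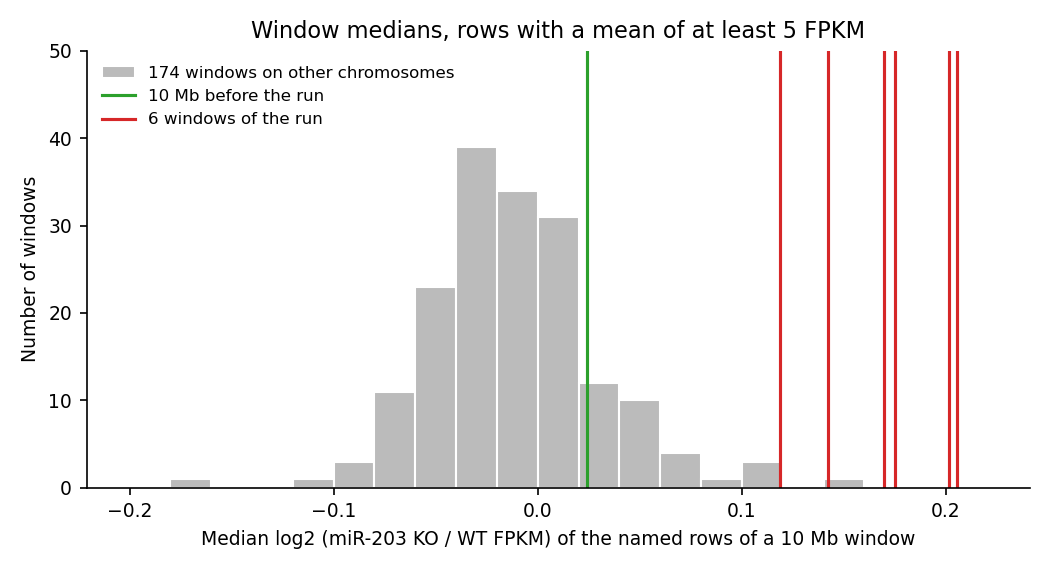
Number of windows of 10 Mb by their median log2 ratio of KO over WT FPKM. Bars are windows of other chromosomes, the green line is the 10 Mb before the run, and red lines are the 6 windows of the named loci, which run from 0.12 to 0.21, while the highest other window stands at 0.15.

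The size of the rise differed little with expression level. Loci with a mean of 1 to 5 FPKM had a median log2 ratio of 0.23, those of 5 to 20 had 0.18, those of 20 to 100 had 0.16, and those of 100 or more had 0.14. Named rows elsewhere had medians of 0.04, 0.00, -0.02 and -0.03 in the same classes, so the distance between loci and other rows stayed similar. Across the 301 loci the Spearman correlation of log2 ratio with mean FPKM was -0.11, a description only, since both measures come from the same pooled values.

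**Figure D3:**
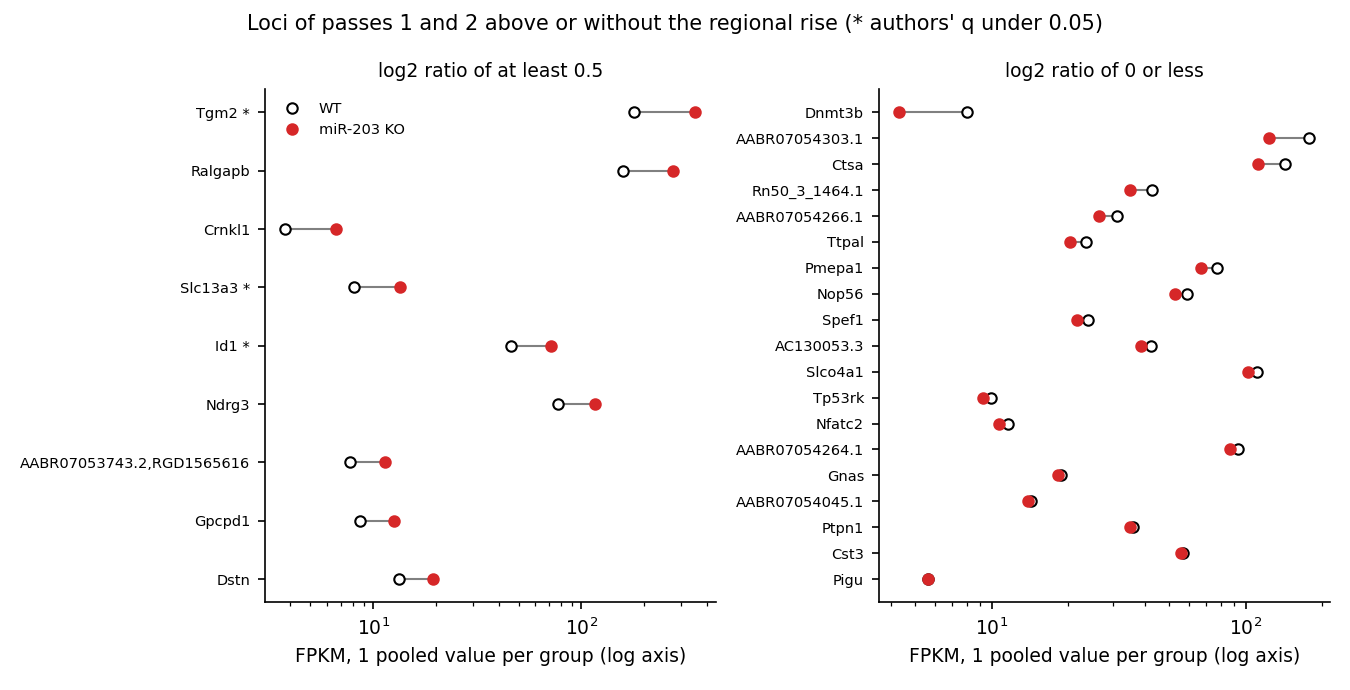
FPKM in WT and KO cells, joined by a line for each locus, for loci of the first and second passes. The left panel shows the 9 loci that exceeded the regional rise and the right panel the 19 that escaped it, both as defined below. Tgm2 stands at 179 FPKM in WT cells and 352 in KO cells, and Dnmt3b at 7.98 and 4.32.

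At the edges of the chosen stretch, single genes inside and outside it lay on both sides of 0, so these values do not mark where the rise begins or ends. Nop56, a core protein of small nucleolar ribonucleoproteins, is the first locus (122803312 to 122813566) and stood at 58.9 FPKM in WT cells and 52.9 in KO cells, a log2 ratio of -0.15. Idh3B, a subunit of a mitochondrial isocitrate dehydrogenase, is listed at the same positions and stood at 21.2 and 25.0 FPKM, a log2 ratio of 0.24. These neighbours, listed with 1 shared span, thus lay on opposite sides of 0. Vps16, a vesicle-fusion protein, came next at 0.18. Just before the start, Rpl22l2 had -0.47 (39.8 and 28.9 FPKM), Stk35 had 0.15 and Snrpb, a spliceosome protein, had 0.16. At the far end Samd10 stood at 0.29, the row of Uckl1 and Zfp512b at 0.14, and Prpf6, a spliceosome protein, at 0.13. Beyond it 7 named rows remained, among them Rgs19 at 0.21 and 2 rows of Tcea2 at -0.21 and -0.68, where the row of Rgs19 shares its positions with Tcea2.

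The authors' test called few of these loci. At q under 0.05 the authors' deposited table called 10 of the 586 (1.71%), against 1.05% of all 26459 tested rows. Higher in KO cells were 9 (1.54%, background 0.491%), and lower was 1 (0.171%, background 0.556%). Since the loci were chosen on the same contrast, nothing is read from these shares. At an unadjusted p under 0.05 the authors' deposited table held 88 of the 586 loci, 84 higher and 4 lower, against 1588 of all 26459 tested rows.

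The most abundant called gene was Tgm2 (154597128 to 154627312), tissue transglutaminase, which cross-links proteins of the matrix and the cell. It stood at 179 FPKM in WT cells and 352 FPKM in KO cells. That is a log2 ratio of 0.98, or 1.97-fold, and q was 0.00756 in the authors' deposited table. None of its neighbours was called: Rprd1b, a regulator of RNA polymerase II, stood at 0.23, Tti1, a partner of PI3K-like kinases, at 0.26, and the accession-named AABR07054460.6 at 0.12. Ralgapb, further along, stood at 0.81.

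Id1 (148215575 to 148216715), a helix-loop-helix protein that blocks the DNA binding of its partners and responds to BMP signals, stood at 45.9 FPKM in WT cells and 71.7 in KO cells, 1.56-fold, and q was 0.00756 in the authors' deposited table. The genes on either side were closer to the regional median, with Hm13, a signal peptide peptidase, at 0.15 and Bcl2l1, an inhibitor of apoptosis, at 0.14, against 0.64 for Id1. Bmp7, a ligand of the BMP pathway that also lies in the run, stood at 21.7 and 27.3 FPKM (log2 ratio 0.33, q = 0.298 in the authors' deposited table).

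Slc13a3 (162084326 to 162105902), a sodium-coupled dicarboxylate transporter, stood at 8.08 FPKM in WT cells and 13.4 in KO cells, 1.66-fold, and q was 0.00756 in the authors' deposited table. The nearest loci at the minimum lay below the regional median, Slc35c2 at 0.10 and LOC685619 at 0.05. Listed between Slc35c2 and Slc13a3 are a row of Cdh22 and 2 of Ocstamp. Their log2 folds were 0.61, 0.18 and -0.32 in the authors' deposited table. Cebpb (164418946 to 164426007), a leucine zipper transcription factor with a known part in decidualization, stood at 10.6 and 14.7 FPKM, 1.38-fold, and q was 0.00756 in the authors' deposited table. Its log2 ratio of 0.46 lay between neighbours on either side of 0 and above both, Tmem189 at 0.27 and Ptpn1 at -0.04.

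Smaller called rises came from 3 other genes. Rbck1, a subunit of the complex that builds linear ubiquitin chains, stood at 29.5 FPKM in WT cells and 39.5 in KO cells (log2 ratio 0.42, q = 0.0137 in the authors' deposited table). Fam83c, of a family that binds casein kinase 1, stood at 10.0 and 13.6 FPKM (0.44, q = 0.0187 in the authors' deposited table). Chd6, a chromodomain helicase, stood at 7.23 and 9.69 FPKM (0.42, q = 0.0269 in the authors' deposited table). Each of these 3 lay above its nearest neighbours in the run: Tbc1d20 beside Rbck1 had 0.33, Eif6 beside Fam83c 0.15 and Lpin3 beside Chd6 0.30.

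The remaining called rows were of low level. The accession-named AABR07054708.1 had 2 rows, at 0.636 FPKM in WT cells and 2.91 in KO cells and at 0.402 and 1.39 FPKM, both with q = 0.00756 in the authors' deposited table. A row of Crnkl1, a spliceosome protein, with a locus of 246 bp stood at 1.91 FPKM in WT and was listed at 0 in KO cells, and q was 0.0187 in the authors' deposited table, and was the only call on the lower side among the 586 loci. Another row of Crnkl1 pointed the other way, with 3.78 and 6.60 FPKM (log2 ratio 0.80, q = 0.510 in the authors' deposited table). Within this symbol the fall and the higher value thus belong to different short rows.

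A log2 ratio of 0.5 or more was taken as exceeding the regional rise. Of the 301 loci 17 did (5.65%), against 2.57% of the 9830 named rows at this minimum in the whole table. Just inside the threshold lay 2 third-pass rows of Dido1, a chromatin reader, at 0.51 and 0.53, and among those just outside it were a third-pass row of Rnf114 at 0.50 and Flrt3, a cell adhesion protein, at 0.48. The 17 came from all 3 passes of the table, 9 of 246 loci of the first and second and 8 of 55 of the third. Elsewhere 107 of 8339 named rows of the first and second passes and 129 of 1190 of the third exceeded. The loci were chosen on the same contrast and the mix of passes differs, so nothing is read from the 2 shares.

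In the first and second passes 9 loci exceeded, of which Tgm2, Id1 and Slc13a3 were called. The largest uncalled ratio among abundant loci was that of Ralgapb (154907193 to 154983019), a subunit of the complexes that switch off Ral GTPases. It stood at 158 FPKM in WT cells and 276 in KO cells, a log2 ratio of 0.81, with p = 0.106 in the authors' deposited table. Ndrg3 stood at 77.3 and 116 FPKM (0.59) with p = 0.783 in the authors' deposited table. The ratios of these 2 loci were thus as large as those of called genes without passing the authors' test.

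The rest of the 9 were less abundant. Gpcpd1, an enzyme of glycerophosphocholine breakdown, stood at 8.61 and 12.6 FPKM (0.55, q = 0.208 in the authors' deposited table). Dstn, an actin-depolymerizing protein, stood at 13.3 and 19.4 FPKM (0.54, q = 0.804 in the authors' deposited table). The row of AABR07053743.2 and RGD1565616 stood at 7.78 and 11.4 FPKM (0.56, q = 0.188 in the authors' deposited table), and Crnkl1 is given above.

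The other 8 exceeding loci came from the third pass, and none passed, with p from 0.432 to 0.822 in the authors' deposited table. In each of their symbols the most abundant row had a lower ratio. The row of Rnf114, a ubiquitin ligase, with the highest ratio of all 301 loci stood at 9.59 FPKM in WT cells and 20.6 in KO cells (1.10), while its most abundant row stood at 35.1 and 38.9 (0.15). For Slc9a8, a sodium-proton exchanger, the exceeding row stood at 3.94 and 7.21 FPKM (0.87) and the most abundant at 31.2 and 35.7 (0.19). For Asxl1, a Polycomb-associated protein, the values were 6.54 and 11.2 FPKM (0.78) against 23.7 and 30.0 (0.34). Nelfcd, a factor that pauses RNA polymerase II, Ythdf1, a reader of methylated RNA, and Ninl, a centrosomal protein, showed the same order, with 0.65, 0.58 and 0.57 in the exceeding rows and 0.24, 0.05 and 0.36 in the most abundant ones. The 2 rows of Dido1 stand against 0.14 in its most abundant row.

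A log2 ratio of 0 or less was taken as escaping the rise. Of the 301 loci 38 did (12.6%), against 51.4% of the 9830 named rows at this minimum. As the loci were chosen for being higher, nothing is read from this difference. Just above this threshold lay LOC689130 at 0.00, Slc23a2, an ascorbate transporter, at 0.00 and Trmt6, a tRNA methyltransferase subunit, at 0.01, and just under it Pigu, of the GPI-anchor transamidase, at 0.00. First and second passes held 19 of the 38, 13 with gene symbols and 6 with accession-style names. None of the 19 passed at q under 0.05, and Dnmt3b and Ctsa alone had a p under 0.05 in the authors' deposited table.

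Dnmt3b (149131613 to 149196589), a de novo DNA methyltransferase, had the lowest ratio of the 301 loci. It stood at 7.98 FPKM in WT cells and 4.32 in KO cells, a log2 ratio of -0.89, with p = 0.0342 and q = 0.759 in the authors' deposited table. The genes beside it shared the rise, with Commd7, a subunit of an endosomal sorting complex, at 0.25 and Mapre1, a protein of microtubule ends, at 0.14. Ctsa (161296305 to 161305843), the lysosomal carboxypeptidase cathepsin A, was the most abundant gene-named locus below 0 in these 2 passes. It stood at 142 and 112 FPKM, a log2 ratio of -0.35, with p = 0.00145 and q = 0.107 in the authors' deposited table. Its neighbours Zswim1 and Pcif1, an mRNA cap methyltransferase, stood at 0.11 and 0.20. Among loci at the minimum, both genes were low between loci that were high, and neither passed. Also listed between Ctsa and Pcif1 are Neurl2, under the minimum, and a row of Pltp. Their log2 folds were -0.28 and 0.24 in the authors' deposited table.

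Further gene-named loci below 0 were Pmepa1, Slco4a1, Ttpal and Nfatc2. Pmepa1, a TGF-beta target that damps the pathway, stood at 77.1 FPKM in WT cells and 67.0 in KO cells (-0.20), between Rbm38, an RNA-binding protein, at 0.10 and Rab22a, an endosomal GTPase, at 0.08. This is its most abundant row, and the other 3 of its 4 rows at 1 FPKM or more were higher in KO cells, from 0.07 to 0.99. Slco4a1, an organic anion transporter, stood at 111 and 102 FPKM (-0.12), between Cables2 at 0.13 and Ogfr, the opioid growth factor receptor, at 0.27. Ttpal stood at 23.5 and 20.3 FPKM (-0.21). Nfatc2, a calcium-dependent transcription factor, stood at 11.5 and 10.7 FPKM (-0.11).

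Other gene-named loci at or below 0 lay close to it. Ptpn1, a tyrosine phosphatase of insulin signalling, stood at 36.1 and 35.2 FPKM (-0.04), Cst3, the protease inhibitor cystatin C, at 56.5 and 55.7 (-0.02), and Pigu at 5.61 in both groups (0.00). Gnas, the imprinted gene of the stimulatory G protein alpha subunit, stood at 18.8 and 18.2 FPKM (-0.04) in its most abundant row. That row covers only 172433899 to 172435119, and 5 of the 6 Gnas rows at 1 FPKM or more were higher in KO cells, so the most abundant row does not stand for the gene. Tp53rk, a kinase of the KEOPS complex, had -0.11 and Spef1, a microtubule-binding protein, -0.14.

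Accession-named and secondary rows made up the others. AABR07054303.1, a locus of 110 bp in its first-pass row, stood at 178 FPKM in WT cells and 124 in KO cells (-0.52), and its third-pass rows stood at 304 and 233 FPKM (-0.38) and at 138 and 119 FPKM (-0.22). Rn50_3_1464.1 had 42.9 and 35.1 FPKM (-0.29) and AABR07054266.1 had 31.3 and 26.5 FPKM (-0.24). All of them were low in KO cells without a call. The third pass held 19 escaping rows, with p from 0.202 to 0.982 in the authors' deposited table. Among them were rows of Slc9a8 (6.93 and 4.45 FPKM, -0.64, and 6.74 and 5.58 FPKM, -0.27), Wisp2, a matricellular protein (7.34 and 5.06 FPKM, -0.54), Mtg2, a mitochondrial GTPase (8.33 and 6.50 FPKM, -0.36), and Stx16, a vesicle-fusion protein (9.02 and 7.06 FPKM, -0.35). Slc9a8 and Rnf114 thus had rows among both the exceeding and the escaping loci. For Wisp2 and Stx16 the most abundant row was higher in KO cells, at 14.3 and 17.3 FPKM (0.28) and at 21.5 and 22.4 FPKM (0.06). For Mtg2 the most abundant row is the escaping one. The most abundant of the 19 was a row of Bcas1 of 204 bp, at 1776 FPKM in WT cells and 1643 in KO cells (-0.11).

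Rows of the same symbol often differed. In all 108 symbols had several rows, together 376 of the 586. Of 17 symbols with at least 4 rows at a mean of 1 FPKM or more, 3 were higher in every row, 1 was lower in every row and 13 had rows on both sides of 0. The median SD of the log2 ratio among rows of a symbol was 0.27. The rows of Zmynd8, a chromatin reader, and Uqcc1, an assembly factor of respiratory complex III, were all higher, from 0.16 to 0.30 and from 0.25 to 0.67, as were those of AABR07054370.1. Slco4a1 was the symbol lower in every row, with 6 rows from -0.31 to -0.12. These rows share 1 locus, so they are not independent of each other.

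**Figure D4:**
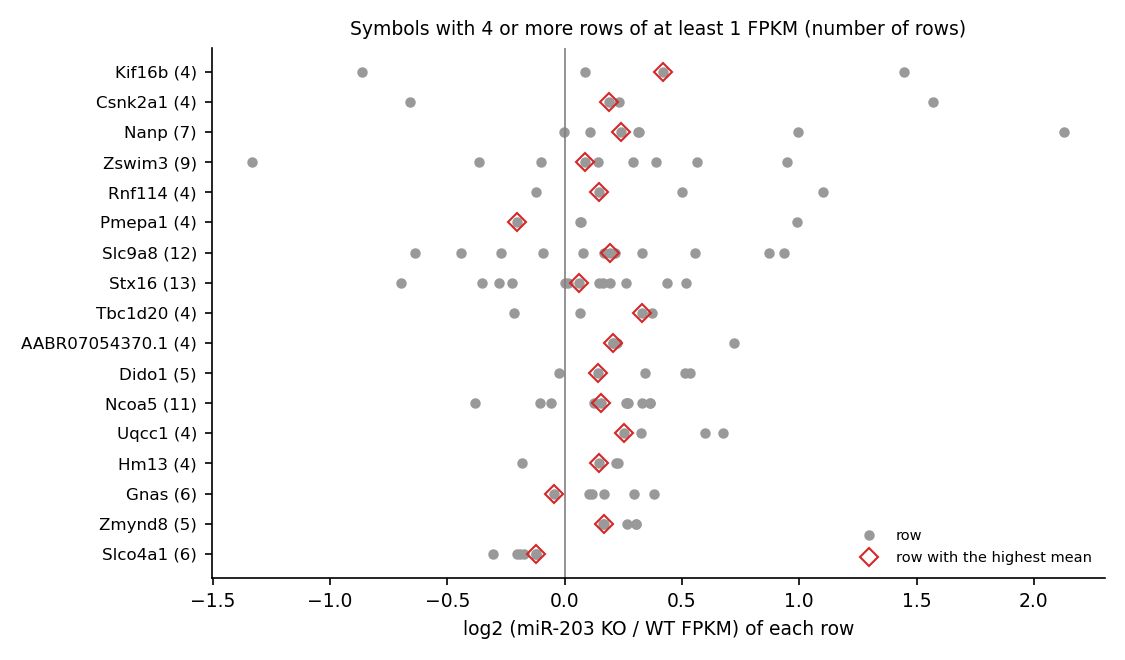
Log2 ratio of KO over WT FPKM of every row with a mean of at least 1 FPKM, for the 17 symbols with at least 4 such rows, with the most abundant row of each symbol marked. All 6 rows of Slco4a1 lie below 0, and 13 symbols have rows on both sides of 0.

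The third pass was the more scattered one. Its 55 loci had a median of 0.14 with 65.5% higher and an SD over loci of 0.346. The first pass (134 loci) had a median of 0.17 with 91.0% higher and an SD of 0.185. The second (112) had 0.17 with 93.8% higher and an SD of 0.185. Elsewhere on the 21 chromosomes 45.4%, 47.3% and 54.4% of named rows were higher in the 3 passes, with SDs of 0.235, 0.234 and 0.483. The wider scatter of the third pass was thus not particular to these loci. With 1 row per symbol, the most abundant, 226 of 247 symbols (91.5%) were higher, 9 exceeded and 21 escaped. A row listed for several genes counts here as a symbol of its own.

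The loci were also grouped by role. The lists hold 196 genes in 9 groups, of which 113 had a row at this minimum, and 104 of the 113 were higher in KO cells. List medians ran from 0.11 to 0.20, beside 0.17 over all 301 loci and -0.01 over named rows elsewhere. Beyond the called genes already named, no gene of a list passed.

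All 16 genes of cell cycle and DNA replication were higher, with a median of 0.17 and 0 called. Pcna, the sliding clamp of DNA polymerases, stood at 194 FPKM in WT cells and 212 in KO cells (0.13). Mybl2, a transcription factor of cycling cells, stood at 129 and 145 FPKM (0.17), and Cse1l, a nuclear export receptor, at 119 and 127 FPKM (0.09). Aurka, a mitotic kinase, stood at 34.8 and 38.5 FPKM (0.14), and Top1, a DNA topoisomerase, at 29.0 and 33.4 FPKM (0.20). The largest ratio of this list was that of Fam83d, a spindle protein, with 44.9 and 56.5 FPKM (0.33, q = 0.165 in the authors' deposited table), and the smallest that of the helicase Rtel1 (0.01).

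Of 9 transcription factors 8 were higher, with a median of 0.17, and 2, Id1 and Cebpb, were called. Eya2, a transcriptional coactivator, stood at 88.5 and 97.6 FPKM (0.14), and Zfp217 at 44.0 and 48.2 FPKM (0.13). Among 11 chromatin genes and cofactors 10 were higher, with a median of 0.18 and Chd6 called. Zmynd8 stood at 70.7 and 79.5 FPKM (0.17), Nelfcd at 58.1 and 68.6 FPKM (0.24) and Prpf6 at 49.3 and 54.1 FPKM (0.13). The exceptions to the shared direction in these groups were Nfatc2 and Dnmt3b.

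Of 14 signals, receptors and signal transducers 11 were higher, with a median of 0.20 and Rbck1 called. Src, a tyrosine kinase, stood at 64.4 FPKM in WT cells and 81.1 in KO cells (0.33, p = 0.0025 and q = 0.161 in the authors' deposited table). Plcg1, a phospholipase downstream of receptor kinases, stood at 43.3 and 49.9 FPKM (0.21). Jag1, a Notch ligand, stood at 13.9 and 15.8 FPKM (0.19), and Bcl2l1 at 29.0 and 32.0 FPKM (0.14). Pmepa1, Ptpn1 and Gnas were the 3 below 0 in their most abundant rows.

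Of 10 matrix, protease and inhibitor genes 8 were higher, with a median of 0.20 and Tgm2 called. Sdc4, a heparan sulfate proteoglycan, stood at 296 and 326 FPKM (0.14), and Ctsz, a cathepsin, at 125 and 140 FPKM (0.16). Lama5, a laminin chain of basement membranes, stood at 93.9 and 116 FPKM (0.31), and Flrt3 at 5.75 and 8.01 FPKM (0.48, q = 0.0683 in the authors' deposited table). The cathepsins Ctsa and Ctsz, both lysosomal and both abundant, thus lay on opposite sides of 0.

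Of 17 genes of RNA processing and translation 16 were higher, with a median of 0.11. Eif6, a ribosome assembly factor, stood at 372 and 413 FPKM (0.15), Raly, an RNA-binding protein, at 166 and 198 FPKM (0.26), and Srsf6, a splicing factor, at 122 and 134 FPKM (0.14). All 18 genes of membrane traffic and cytoskeleton were higher, with a median of 0.14. Pard6b, a polarity protein, stood at 58.6 and 59.6 FPKM (0.02), Tomm34 at 56.9 and 59.4 FPKM (0.06) and Snx5, a sorting nexin, at 56.8 and 57.6 FPKM (0.02). In this group the 3 most abundant genes had some of its smallest ratios.

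Of 16 metabolic and mitochondrial genes 15 were higher, with a median of 0.14. Itpa, which clears inosine nucleotides, stood at 128 and 140 FPKM (0.13), Ahcy, which splits S-adenosylhomocysteine, at 89.1 and 98.4 FPKM (0.14), and Pigt, of the GPI-anchor transamidase like Pigu, at 90.0 and 97.0 FPKM (0.11). The largest ratio was that of Acss2, an acetyl-CoA synthetase, with 7.92 and 10.7 FPKM (0.43, q = 0.130 in the authors' deposited table). All 5 ubiquitin and proteasome genes were higher, with a median of 0.18. Psma7, a proteasome subunit, stood at 36.0 and 39.4 FPKM (0.13), and Itch, a ubiquitin ligase, at 31.8 and 37.6 FPKM (0.24).

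**Figure D5:**
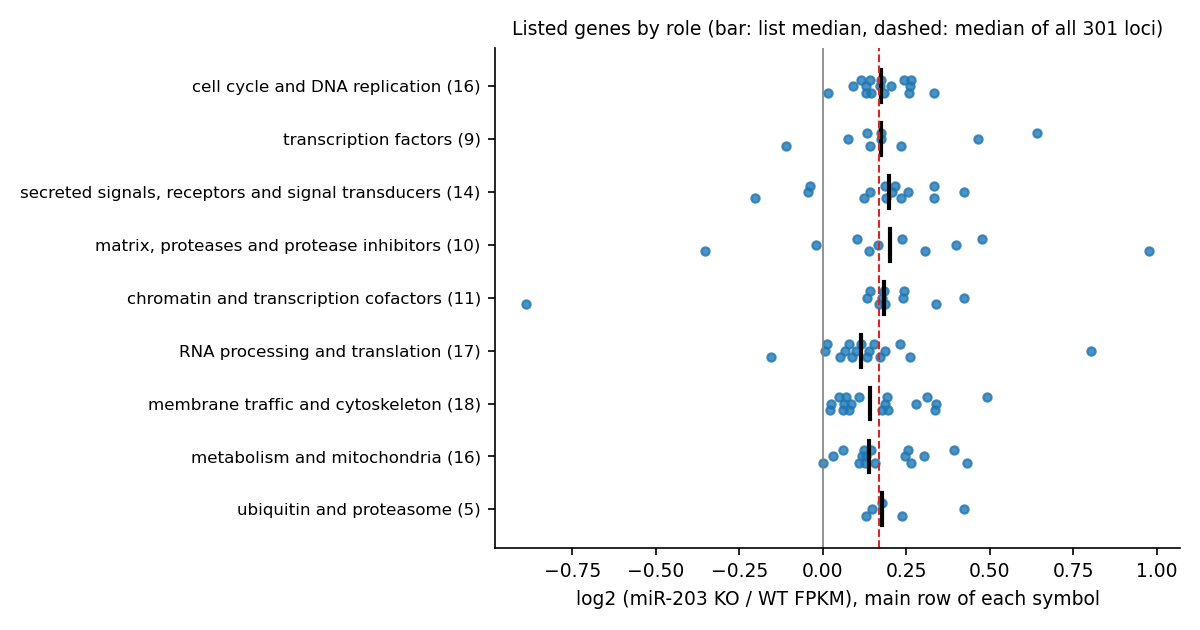
Log2 ratio of KO over WT FPKM of each listed gene with a mean of at least 5 FPKM, by role, in its most abundant row. Black bars are list medians and the dashed line is the median of all 301 loci. Medians lie between 0.11 and 0.20, and Tgm2, Crnkl1 and Id1 stand highest and Dnmt3b lowest.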

How the data were processed

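Stranded RNA-seq libraries of 6 samples, 3 WT and 3 miR-203 KO, were summarised by the authors. The submitters' processing notes name the build rn6 and the tools TopHat 0.9, Cufflinks 2.2.1 and, for the comparison, Cuffdiff 2.2.1.3, and the annotation is not given in the sources used here. Per the file headers, the deposited gene table holds 1 FPKM value per group, the log2 fold change, the test statistic (a score), the p-value and the q-value. All were made by the authors. That each FPKM value pools the 3 samples of its group was inferred from the column names, which match the sample titles. The table writes decimals with commas, which were read as points. FPKM keeps no depth, is unstable for short loci, and shares reads between overlapping or near-identical genes.

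Members were tested named rows by position, and log2 ratios used FPKM values without a pseudocount where both were above 0. In 4 members the deposited log2 fold differed from this ratio by over 0.01. The planned minimum was a mean of 5 FPKM. No test was run here, because the readout chose the members, and a call is the authors' q under 0.05. Positions are as the authors list them, and where exons lie was not analysed here. Passes of the table were told apart by start positions stepping back by over 5 Mb. Arithmetic was tested on simulated data.

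Named loci are the called ones, the 12 highest and 12 lowest ratios at the minimum, the 3 most abundant genes of each list, the 3 nearest each edge, and Tgm2, Id1, Cebpb, Pcna, Aurka, Src, Bcl2l1, Top1, Gnas and Jag1. Among single loci, 1 item is not reported here. Other names, such as neighbours, were chosen after their values were seen, and neighbours are loci at the minimum. Members, lists and rule were chosen with earlier results of these data known. Promoters and miRNA are from RefSeq (GRCr8). Python 3.11.15, pandas 2.3.3, NumPy 2.4.6, SciPy 1.17.1 and matplotlib 3.10.9 were used.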

Additional observations from a re-analysis of the deposited data

How the results depend on the processing

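No paired analysis was possible because each group has 1 pooled value, and for the same reason no replicate could be left out and no batch split off. Dropping the third pass and dropping loci that share positions, and every alternative for the role lists, were chosen after seeing the data. The median log2 ratio of 0.17 became 0.21 with no minimum. The share higher (87.4%) was 82.4% at a minimum of 1 FPKM, 82.9% with none, 91.5% with 1 row per symbol, 92.3% without the third pass and 92.0% without shared positions. In that order, and with 4 and 20 at a minimum of 20 FPKM, exceeding loci (17) numbered 53, 116, 9, 9 and 7, and escaping loci (38) numbered 80, 100, 21, 19 and 13. The 10 calls became 6 at q under 0.01 and 6 with a fold of at least 1.5 as well. No direction turned under the alternatives run. Of 192 recomputed values of 64 single loci, 190 stayed within 1.5-fold, and the 2 rows of AABR07054708.1 became 1.26 and 0.77 with a pseudocount of 1. Counts past a threshold thus depend on the minimum and on which row stands for a symbol.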

Other observations

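The same stretch of chromosome 3 also holds 257 tested rows without a gene symbol. Of these 28 had a mean of at least 5 FPKM, with a median log2 ratio of -0.00, quartiles of -0.17 and 0.25, and 14 of 28 higher in KO cells. By pass of the table, 2 of 3 were higher in the first, 2 of 3 in the second and 10 of 22 in the third. No unnamed row at this minimum was called in the authors' deposited table, and 2 were called below it.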
